A study of Mus musculus with 12 samples.

Results

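The comparison described here set 3 lungs of Gadd45a knockout mice against 3 lungs of wild type mice, all after ventilator-induced lung injury (VILI), and covered every gene measured. The members were the 6 arrays whose titles read WT-VILI and GADD45-/- -VILI, replicates 1 to 3 of each, among the 12 arrays of the series. All mice were 8 to 12 weeks old, and those of the VILI groups were ventilated for 4 hours at 65 breaths per minute, each breath being 30 ml/kg. The other 6 arrays, 3 wild type and 3 knockout lungs labelled SB, entered the fit and gave the genotype difference without VILI. SB is left unexpanded in the labels; the design text treats wild type SB lungs as the control. The knockout appears as GADD45-/- in the titles and as GADD-/- elsewhere, and the gene is named as GADD45a in the title of the series. The labels give no strain, sex, collection hour or array batch, and do not describe the deletion or say how it was made. With 3 mice a group in the design text, each array was read as 1 animal. Each array measured total RNA of whole lung with Affymetrix probe sets. Levels and differences are therefore given on the log2 scale, where a difference of 1 is a doubling.

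Gadd45a is a small nuclear protein induced by DNA damage and cell stress, which binds the cell cycle inhibitor p21, the replication clamp PCNA and upstream kinases of the p38 and JNK pathways. Ventilation at a high tidal volume overstretches the lung. The stretch is known to open the endothelial and epithelial barrier and to bring neutrophils and their chemoattractants into the tissue. Akt, named in the series title, is a kinase downstream of PI3K that supports cell survival and barrier function. The comparison asked what loss of Gadd45a leaves different in the injured lung.

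The targeted gene was low in all 3 knockout lungs. Gadd45a, measured by 1 probe set, was at 9.75, 9.77 and 10.33 in wild type VILI and at 5.87, 6.02 and 5.36 in knockout VILI. The groups did not overlap, and Gadd45a fell by 4.2 log2 units (SE 0.38, limma adjusted p = 0.00126), to an 18.4-fold lower level. The sources used here do not place its probes relative to the deletion. The arrays carried the lung's own markers at high levels. The surfactant gene Sftpc lay between 15.12 and 15.31 and the club cell secretoglobin Scgb1a1 between 15.52 and 15.65 over the 6 VILI arrays, and the means of the endothelial list lay between 10.46 and 10.85. Array medians of the 6 VILI arrays lay between 4.44 and 4.58, and with 3 arrays a group the precision is limited by their number. Pairs of wild type VILI arrays correlated at 0.984 to 0.995 across the 10996 genes, pairs of knockout VILI arrays at 0.968 to 0.983. Replicate 3 of knockout VILI stood apart by its B cell markers, with a mean of 10.06 over 11 genes against 6.31 to 7.18 on the other 5 VILI arrays, and replicate 3 of knockout SB had 9.17.

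In all, 11 of 10996 genes (0.100%) passed the threshold, a limma p under 0.05 after Benjamini-Hochberg adjustment over all genes. Of these, 5 were higher in knockout VILI (0.0455% of genes tested) and 6 were lower (0.0546%). The higher genes were Igkv6-14, Igha, Pik3ap1, Fbln2 and Nnt, and the lower genes were Gadd45a, Mid1, Eln, Igf1, Hps1 and Smoc2. The 3 knockout and 3 wild type VILI arrays did not overlap for any of the 11, as for 1624 of all genes (14.8%). At an unadjusted p under 0.05 there were 756 genes (6.88%), 306 higher (2.78%) and 450 lower (4.09%). The count of 11 moved with single arrays: it was 42 without knockout VILI replicate 1, of which 10 were among the 11, and 17 without wild type SB replicate 1. When limma weighted the arrays by their quality, 44 genes passed and all 11 were among them. Genes named beyond the 11, the Gadd45 family and the largest differences of the cytokine, Akt and ubiquitin lists were chosen after their values were seen.

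**Figure D1:**
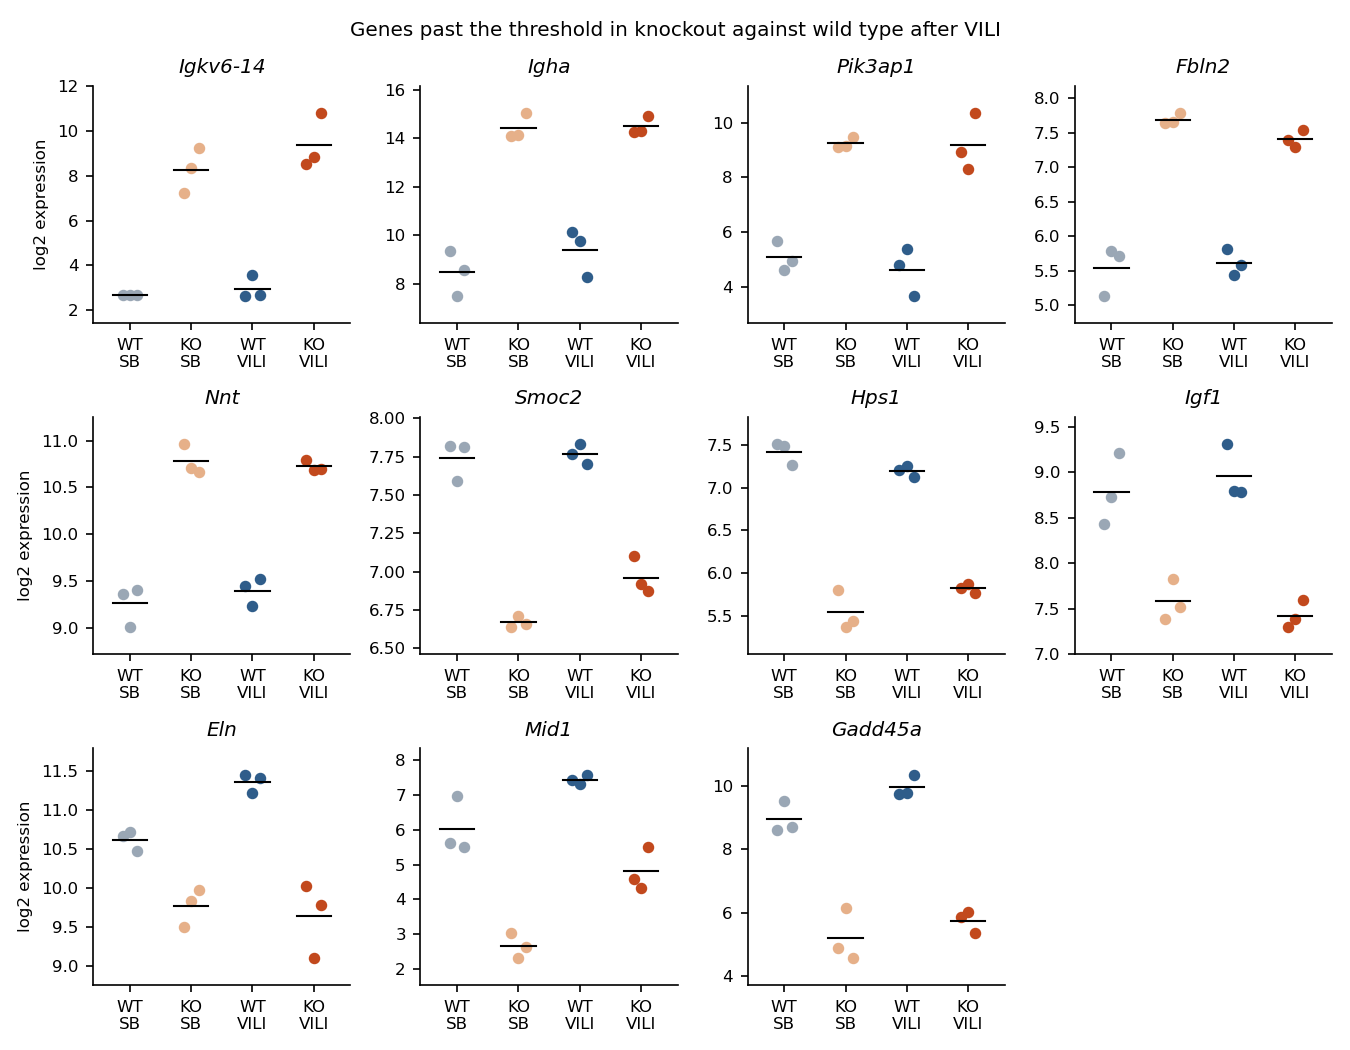
Log2 expression (vertical axes, each with its own range) of the 11 genes past the threshold in the 4 groups, wild type (WT) and knockout (KO) in SB and after VILI; points are single arrays and bars are means of 3. In each panel the 3 knockout VILI points lie on one side of the 3 wild type VILI points, as for Gadd45a at 5.36 to 6.02 against 9.75 to 10.33.

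Immunoglobulin transcripts, made by B cells and by the plasma cells that mature from them, gave the largest rises. Igha, the heavy chain of the mucosal antibody IgA, rose from 10.14, 9.76 and 8.27 in wild type VILI to 14.26, 14.31 and 14.94 in knockout VILI. Every knockout lung lay above every wild type lung, and the difference was 5.11 (SE 0.52, adjusted p = 0.00151), 34.6-fold. Its 3 kept probe sets gave 5.11 to 6.03. Igkv6-14, a variable segment of the kappa light chain, rose from 2.64, 3.55 and 2.68 to 8.53, 8.82 and 10.79, a difference of 6.42 (SE 0.58, adjusted p = 0.00126). Its wild type values lay below the array medians, so its 85.9-fold change is approximate.

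The other immunoglobulin genes did not pass. Of 13 immunoglobulin and joining chain genes tested, all 13 had a positive difference, from 1.02 to 6.64 with a median of 5.11, where the median of all genes was -0.01. In 9 of the 13 all knockout VILI arrays lay above all wild type VILI arrays, which was the case for 6.64% of all genes. A probe set was kept when 3 of 12 arrays lay above the array median, so a gene could enter through knockout arrays alone. Igkv6-14 and Igkv6-20 did, with no wild type array above 3.55 for the first or 2.5 for the second. Igk and the heavy chain gene Ighg3 also needed knockout arrays to be kept. Only wild type SB replicate 1 lay above the median for them, at 6.65 and 5.11. The remaining kappa segments other than Igkv8-30 likewise had fewer than 3 wild type arrays above it. Igha, Jchain, Iglv1, Igkv8-30 and Ighm had at least 3. These counts and the median therefore follow in large part from the filter, and all genes are not a like-for-like background for them. Jchain, which links the subunits of IgA and IgM, was at 8, 7.26 and 6.52 in wild type VILI and at 12.28, 12.5 and 13.96 in knockout VILI, a difference of 5.66 (adjusted p = 0.103). Jchain and Igkv8-30, a kappa segment, passed with only the 6 VILI arrays in the fit (adjusted p = 0.0291 each), with array weights (0.0187 and 0.0119), and without wild type SB replicate 1 (0.0493 and 0.0364) or 2 (0.00375 and 0.00224). Iglv1, a lambda light chain segment, differed by 6.63 (adjusted p = 0.186), Igk by 6.17 (adjusted p = 0.0817) and Igkv8-30 by 4.67 (adjusted p = 0.0707). Ighm, the heavy chain of IgM, which is the class that unswitched B cells carry, was at 8.8, 9.3 and 8.85 in wild type VILI and 9.24, 9.42 and 11.61 in knockout VILI (difference 1.1, adjusted p = 0.812), with only replicate 3 clearly above. Many of these segments are near-identical in sequence, so signal can be shared among their probe sets.

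Markers of the cells that make antibody were set beside them. Of 11 measured B cell markers, all 11 were higher with a median of 1.17, and 0 passed or reached an unadjusted p under 0.05. Their mean level was 6.44 to 6.88 in wild type VILI and 7.18, 6.31 and 10.06 in knockout VILI, and without knockout VILI replicate 3 the median was 0.06. In SB lungs the median of the same markers was 1.12. Cd79a, a signalling chain of the B cell receptor, was at 6.95, 7.14 and 7.11 in wild type VILI and at 7.44, 6.6 and 10.67 in knockout VILI. Of 6 plasma cell markers, 5 were higher, with mean levels of 8.6 to 8.92 in wild type VILI and 10.06 to 11.24 in knockout VILI. The median of the 6 was 0.38, since 2 members, Jchain and Mzb1, carried the gap, while Xbp1 (0.24), Sdc1 (-0.22), Prdm1 (0.48) and Txndc5 (0.28) stood near 0. Mzb1, a chaperone of antibody secretion, was at 3.72, 4.24 and 4.39 against 6.63, 5.99 and 10.54 (difference 3.6, adjusted p = 0.404). The plasma cell gap was present without VILI, with mean levels of 8.37 to 9.26 in wild type SB and 9.89 to 10.79 in knockout SB. There Jchain differed by 5.39 and Mzb1 by 2.23. Igha and Igkv6-14 stayed past the threshold in each of the 12 fits that left out 1 array, replicate 3 of knockout VILI included. In whole-lung RNA, more cells of a type and more transcript per cell cannot be told apart, and the part of B and plasma cell numbers in these differences was not tested.

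Of the 3 other genes that rose, 2 had very tight replicates. Nnt, the mitochondrial transhydrogenase that supplies NADPH for glutathione reduction, was at 9.44, 9.23 and 9.52 in wild type VILI and 10.79, 10.69 and 10.7 in knockout VILI. It rose by 1.34 (SE 0.13, adjusted p = 0.00151), 2.52-fold, and its 2 kept probe sets gave 1.34 and 1.36. Nnt is known to be partly deleted in one common inbred substrain of laboratory mice. The labels give no strain. For called genes other than Gadd45a itself, loss of Gadd45a and a difference in genetic background therefore cannot be told apart. Nnt was the 1 called gene of 27 measured in the oxidative stress list, whose median was 0.03. Fbln2, an extracellular matrix glycoprotein that binds elastin and basement membrane, went from 5.81, 5.44 and 5.59 to 7.39, 7.29 and 7.54. The rise was 1.79 (SE 0.18, adjusted p = 0.00151), 3.46-fold, and no knockout array came within the wild type range. Pik3ap1, also called BCAP, is an adaptor that couples B cell and Toll-like receptors to PI3K. It rose from 4.79, 5.39 and 3.67 to 8.91, 8.29 and 10.34, a difference of 4.56 (SE 0.52, adjusted p = 0.00336), 23.6-fold. The wild type values of Pik3ap1 lay near the array medians, a further probe set of the gene was too low to be kept, and the call was lost with only the 6 VILI arrays in the fit (adjusted p = 0.111).

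Hps1, Mid1 and Smoc2 fell. Hps1, a subunit of a complex that builds lysosome-related organelles such as the lamellar bodies of type II cells, was at 7.21, 7.26 and 7.13 in wild type VILI and 5.82, 5.87 and 5.76 in knockout VILI. The groups were separated by a wide gap, with a fall of 1.38 on the log2 scale (SE 0.15, adjusted p = 0.00201), 2.6-fold. The other kept probe set of Hps1 read 5.03 to 5.1 in wild type VILI and 5.02 to 5.03 in knockout VILI, with a difference of -0.03, and with the mean of all kept probe sets Hps1 no longer passed (difference -0.7, adjusted p = 0.0884). Mid1, a microtubule-associated ubiquitin ligase whose gene lies at the boundary of the pseudoautosomal region in laboratory mice, went from 7.43, 7.31 and 7.56 to 4.6, 4.34 and 5.51, a fall of 2.62 (SE 0.39, adjusted p = 0.0326). Smoc2, a secreted matricellular calcium-binding protein, went from 7.77, 7.83 and 7.7 to 7.1, 6.92 and 6.87, a fall of 0.80 (SE 0.12, adjusted p = 0.0326), which at 1.75-fold was the smallest change called.

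The adjusted p of Mid1 and Smoc2 lay near the threshold, and many single arrays moved it past. Mid1 lost its call without wild type VILI replicate 1 (adjusted p = 0.164), 2 (0.12) or 3 (0.171), without knockout VILI replicate 1 (0.0526) or 2 (0.125), and without knockout SB replicate 1 (0.0537) or 3 (0.0558). Smoc2 lost its call without wild type VILI replicate 1 (0.183), 2 (0.217) or 3 (0.118), without knockout VILI replicate 2 (0.125) or 3 (0.177), without wild type SB replicate 3 (0.0618), and without knockout SB replicate 1 (0.0627) or 2 (0.0583). Over all alternatives run, the difference kept its sign and lay between -2.96 and -2.38 for Mid1 and between -0.87 and -0.76 for Smoc2.

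Elastin and the growth factor Igf1 fell in knockout VILI lungs. Eln encodes the core protein of the elastic fibres that give the lung its recoil. It was at 11.44, 11.21 and 11.4 in wild type VILI and 10.02, 9.11 and 9.78 in knockout VILI, so every knockout lung lay below every wild type lung. The fall was 1.71 (SE 0.2, adjusted p = 0.00488), 3.27-fold, and the gene's other kept probe set gave a larger difference of -2.72, from 8.98, 8.62 and 8.05 to 6.48, 5.49 and 5.51. Igf1, insulin-like growth factor 1, a secreted activator of PI3K and Akt made largely by mesenchymal cells and macrophages in lung, went from 9.31, 8.8 and 8.78 to 7.3, 7.39 and 7.59. It fell by 1.54 (SE 0.21, adjusted p = 0.0189), 2.91-fold, and its 4 kept probe sets gave -0.95 to -1.54. The call of Igf1 was lost without wild type VILI replicate 1 (adjusted p = 0.109), 2 (0.0568) or 3 (0.0586) or knockout VILI replicate 2 (0.0869). With only the 6 VILI arrays in the fit neither gene passed, with the same differences and adjusted p of 0.108 for Eln and 0.0631 for Igf1.

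Eln and Fbln2 were the 2 called genes among 32 measured members of a list of matrix, elastic fibre and remodelling genes, 1 lower and 1 higher. The median of the list was -0.44, and 28 of 32 members were lower in knockout VILI, as were 5747 of all 10996 genes. In SB lungs the median of the list was -0.29. An unadjusted p under 0.05 was reached by 15 lower members and by 1 higher member, Fbln2, against 4.09% and 2.78% of all genes. All knockout VILI arrays lay below all wild type VILI arrays for 14 of the 32, which was the case for 8.13% of all genes. The crosslinking enzyme Loxl1 differed by -0.76 (adjusted p = 0.271), the fibrillar collagens Col1a1 by -0.93 (adjusted p = 0.507) and Col3a1 by -0.71 (adjusted p = 0.271), and Col6a3 by -0.83 (adjusted p = 0.259). Tnc, tenascin C, a matrix protein of injured tissue, was at 8.04, 7.64 and 7.83 in wild type VILI and 6.41, 6.02 and 6.84 in knockout VILI (difference -1.41, adjusted p = 0.152). Tnc passed with the mean of its probe sets (-1.65, adjusted p = 0.00906), with that of highest variance (-1.89, adjusted p = 0.00778), with array weights (0.0205) and without wild type SB replicate 1 (0.0493). Some members stood near 0, among them the inhibitor Timp3 (0.08), the fibulin Fbln5 (-0.13), periostin Postn (-0.13) and the gelatinase Mmp9 (0.08).

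**Figure D2:**
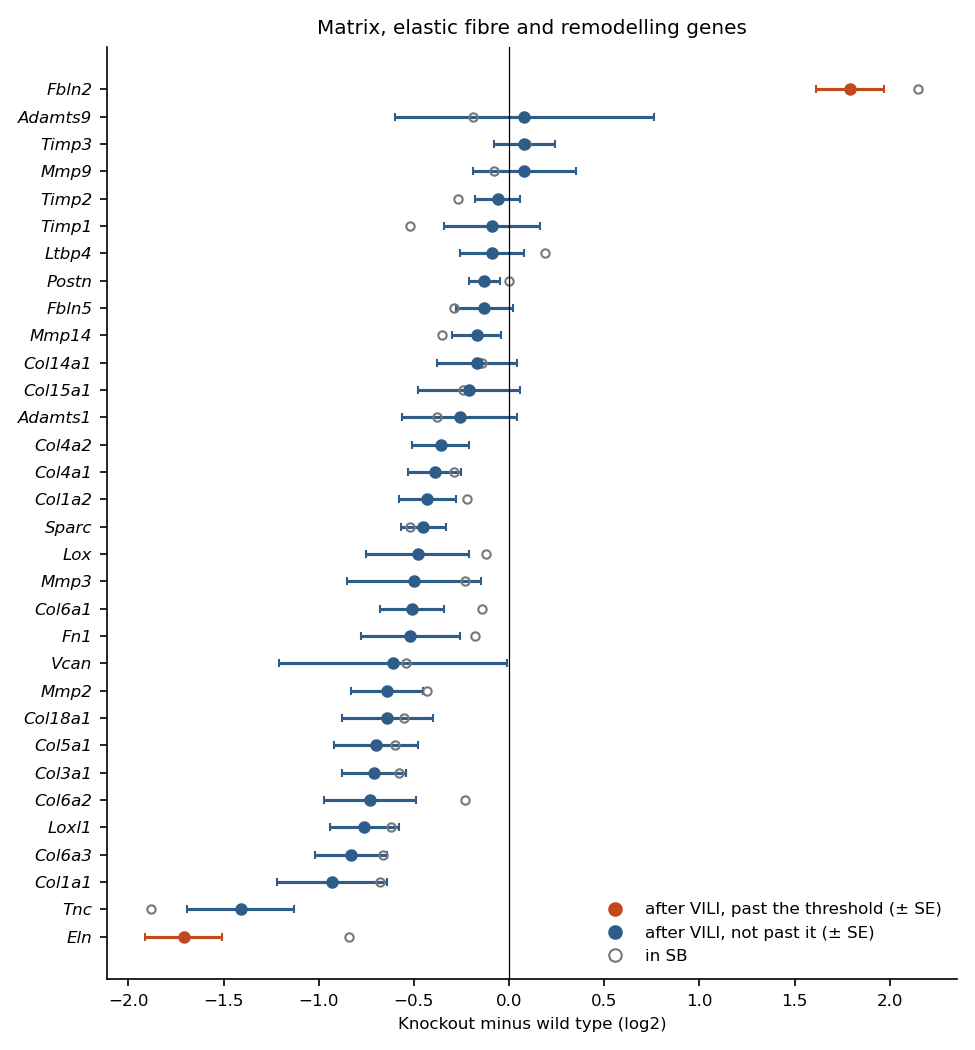
Difference of knockout minus wild type on the log2 scale (horizontal axis) for 32 matrix, elastic fibre and remodelling genes; filled points show the VILI lungs with the standard error of the fit, orange where the gene passed the threshold, and open circles show the SB lungs. Fbln2 at 1.79 stands alone on the right, Eln at -1.71 is lowest, and 28 of 32 filled points lie left of 0.

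Fibroblast and smooth muscle markers were set beside the matrix genes. Of 22 measured, 0 passed, 18 were lower, 8 of them at an unadjusted p under 0.05 (4.09% of all genes), and the median was -0.31. In SB lungs the same list had a median of -0.37. Their mean level was 10.29 to 10.45 in wild type VILI and 10.01 to 10.21 in knockout VILI, so the ranges did not overlap. The smooth muscle actin Acta2 differed by -0.44 (adjusted p = 0.507) and the actin-binding protein gene Tagln by -0.45 (adjusted p = 0.271), while Dcn, the proteoglycan decorin of fibroblasts, was at 0.35 (adjusted p = 0.711). Col1a1, Col1a2 and Col3a1 belong to both lists. Without knockout VILI replicate 3 the matrix list had 11 lower members at an unadjusted p under 0.05 and a median of -0.3. The part of fibroblast and smooth muscle numbers in the differences of Eln and Igf1 was not tested.

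Neutrophil chemoattractants and acute cytokines were higher in knockout VILI lungs, and none of them passed. Of 10 measured members, 0 were called, all 10 had a positive difference, and the median was 1.12. An unadjusted p under 0.05 was reached by 6, against 2.78% of all genes on the higher side. Cxcl1, which draws neutrophils through the receptor Cxcr2, was at 5.77, 5.49 and 6.27 in wild type VILI and 7.81, 8.36 and 7.5 in knockout VILI, so each knockout lung exceeded each wild type lung (difference 2.04, SE 0.37, adjusted p = 0.0817). Cxcl5, an epithelial chemokine of the same receptor, was at 6.36, 5.93 and 7.11 against 7.92, 9.72 and 9.21 (difference 2.49, adjusted p = 0.347), again without overlap. Cxcl2 differed by 1.67 (adjusted p = 0.538), likewise without overlap. Il6 overlapped, since wild type VILI replicate 3 was at 7.14 beside 3.71 and 4.44, and knockout VILI was at 5.84, 7.88 and 7.45 (difference 1.97, adjusted p = 0.691). Il1b differed by 1 (adjusted p = 0.724), and Ptgs2, the inducible cyclooxygenase, by 0.06 (adjusted p = 0.998). A further 16 listed members, Tnf and Ccl2 among them, were too low to be kept.

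The count at an unadjusted p under 0.05 was 3 without knockout VILI replicate 2 and 3 without replicate 3. The median of the cytokine list lay between 0.71 and 1.51 without 1 array, and between 0.36 and 1.12 over the other settings. Cxcl1 passed in 2 of the alternatives, with array weights (adjusted p = 0.0073) and without knockout SB replicate 1 (adjusted p = 0.0123), and Cxcl5 passed with array weights (adjusted p = 0.0313). Of 15 measured neutrophil markers 13 had a positive difference, from -0.06 to 1.99 over the list with a median of 0.36, and 0 passed. The same markers had a median of 0.39 in SB lungs, so a difference of this size was present without VILI. S100a8 and S100a9, the subunits of calprotectin, differed by 0.09 and 0.15 with overlapping arrays. Ltf, the granule protein lactoferrin, had the largest difference and no overlap, at 7.93, 7.75 and 9.34 in wild type VILI and 9.76, 10.29 and 10.93 in knockout VILI (difference 1.99, adjusted p = 0.724). Their mean level was 8.62 to 9.42 in wild type VILI and 8.83 to 10.24 in knockout VILI. Lcn2, an iron-binding protein of neutrophils and stressed epithelium, was at 12.5, 12.63 and 11.47 against 13, 12.89 and 13.25 (difference 0.85, adjusted p = 0.501). In SB it differed by 0.93. Among 22 NF-kB feedback and adhesion genes 0 passed and 18 were positive, with a median of 0.32. Traf1 differed by 1.07 (adjusted p = 0.691) and Nfkbia, the main inhibitor of NF-kB, by 0.02 (adjusted p = 0.977).

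**Figure D3:**
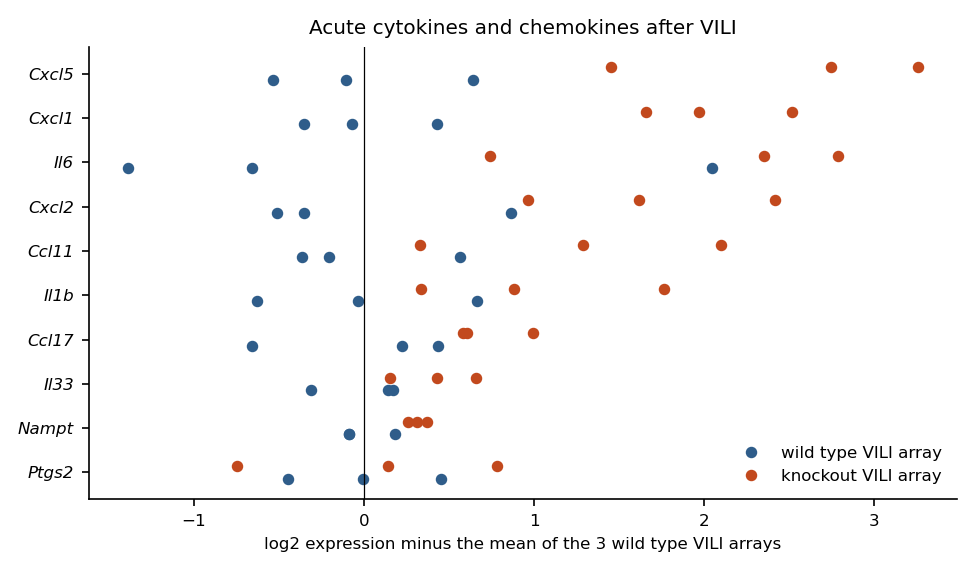
Log2 expression of 10 acute cytokine and chemokine genes in single VILI arrays, given relative to the mean of the 3 wild type VILI arrays (horizontal axis, log2 units), with wild type arrays in blue and knockout arrays in orange. For Cxcl1, Cxcl2 and Cxcl5 all knockout arrays lie to the right of all wild type arrays, and for Il6 and Ptgs2 they overlap.

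Of 18 measured genes of the circadian clock none passed, though 12 had knockout and wild type VILI arrays that did not overlap, in both directions. In the clock, Arntl (also called Bmal1) with Clock or Npas2 activates E-box genes such as the Per and Cry repressors and the transcription factors Dbp, Tef and Hlf, which bind D-boxes. Dbp was at 7.93, 8.35 and 7.44 in wild type VILI and 10.38, 9.95 and 9.92 in knockout VILI, a difference of 2.17 (SE 0.37, adjusted p = 0.0662). Arntl was at 7.49, 7.01 and 7.36 against 4.64, 4.65 and 5.34, a difference of -2.41 (SE 0.55, adjusted p = 0.259). Both were free of overlap and of opposite sign. Npas2 differed by -2.25 (adjusted p = 0.296), with knockout values of 2.74 to 2.93 below the array medians, and Clock by -0.41 (adjusted p = 0.456). On the other side, Hlf differed by 1.49 (adjusted p = 0.537), Per3 by 1.47 (adjusted p = 0.521), Ciart, a repressor of the activating arm, by 1.06 (adjusted p = 0.147), Per2 by 0.93 (adjusted p = 0.38), Tef by 0.85 (adjusted p = 0.507) and Nr1d2, a nuclear receptor that represses Arntl, by 0.57 (adjusted p = 0.207).

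Of 18 measured clock genes 0 were called, 7 were higher and 3 lower at an unadjusted p under 0.05, where 2.78% and 4.09% of all genes were. In 12 the knockout and wild type VILI arrays did not overlap, against 14.8% of all genes, 8 with the knockout above and 4 below. Per1 (0.18), Nr1d1 (-0.19) and Usp2 (0.09) overlapped. In SB lungs Dbp was at 10.82 ± 0.75 in wild type and 11.34 ± 0.52 in knockout, and Arntl at 5.01 ± 0.74 and 4.4 ± 1.31 (SD, n = 3). The difference between the genotype effects after VILI and in SB was 1.65 (SE 0.52) for Dbp, with an adjusted p of 1. Without any 1 of the 3 knockout VILI arrays, 7 clock genes were higher at an unadjusted p under 0.05, and 3 or 4 were lower. Arntl passed with only the 6 VILI arrays in the fit (adjusted p = 0.0341), and Dbp passed under the stricter filter (0.0489), with array weights (0.028), without wild type SB replicate 2 (0.0208) and without replicate 3 (0.0348). The labels give a light-dark cycle and no hour of collection.

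**Figure D4:**
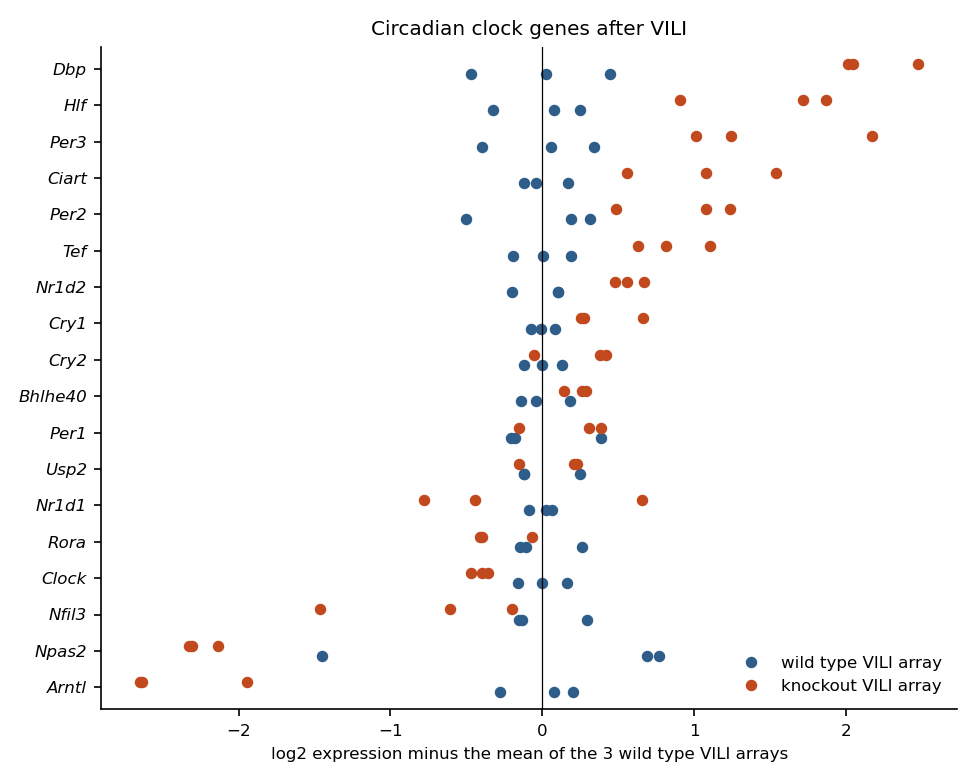
Log2 expression of 18 clock genes in single VILI arrays, relative to the mean of the 3 wild type VILI arrays (horizontal axis, log2 units), with wild type arrays in blue and knockout arrays in orange. Dbp at the top lies 2.17 to the right on average and Arntl at the bottom lies at -2.41, and 8 genes have all knockout arrays above and 4 all below the wild type arrays.

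Because clock genes are read through short elements, the 250 bases before the start site were searched on both strands in the RefSeq promoters of assembly GRCm38.p6 for the E-box CACGTG, the D-box TTATGTAA and the ROR element TAGGTCA. None of the 3 contains another. Over 32851 promoters of that length, 6.02% held the E-box, 0.819% the D-box and 2.23% the ROR element. Of the 18 clock genes 16 had promoters, with 21 windows. The E-box was found in 4 genes, Ciart, Cry1, Per1 and Tef, the D-box in 1, Per3, and the ROR element in 1, Nfil3. Ciart, Per3 and Tef, 3 genes with a match and a higher value in knockout VILI, are shown and were chosen after the search. Cry1 (0.4) and Per1 (0.18) also had a match and a higher value and are not shown. A further window of Tef, at chr15:81811164-81811413, held an E-box too, so the distance given for Tef is that of the printed window. Capitals mark the matches. The windows lie at chr3:95882229-95882478 (minus strand), chr4:151044666-151044915 (minus strand) and chr15:81802423-81802672 (plus strand), and the nearest match ended 38 bases before the start site in Ciart, 150 in Per3 and 121 in Tef. A match is a stretch of letters and was not tested as a site.
Ciart: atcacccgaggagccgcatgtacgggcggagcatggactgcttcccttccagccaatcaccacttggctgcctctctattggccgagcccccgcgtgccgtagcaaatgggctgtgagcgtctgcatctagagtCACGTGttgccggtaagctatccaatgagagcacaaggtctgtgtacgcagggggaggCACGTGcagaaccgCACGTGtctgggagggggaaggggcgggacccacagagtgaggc
Per3: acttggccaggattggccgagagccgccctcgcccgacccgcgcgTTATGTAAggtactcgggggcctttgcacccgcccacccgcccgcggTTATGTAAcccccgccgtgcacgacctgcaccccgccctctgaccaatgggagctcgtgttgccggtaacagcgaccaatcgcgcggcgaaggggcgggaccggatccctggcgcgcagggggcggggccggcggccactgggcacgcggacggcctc
Tef: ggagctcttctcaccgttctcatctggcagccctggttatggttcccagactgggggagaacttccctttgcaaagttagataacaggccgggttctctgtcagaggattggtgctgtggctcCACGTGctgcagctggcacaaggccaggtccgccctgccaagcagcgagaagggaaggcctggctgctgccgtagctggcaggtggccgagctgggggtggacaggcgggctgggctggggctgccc

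The PI3K-Akt list, which bears on the series title, held 37 measured genes, and 1 passed, Igf1. The median was -0.03, and besides Igf1 an unadjusted p under 0.05 was reached by Pik3cb, a catalytic subunit of PI3K (-0.58, adjusted p = 0.66), and by Inpp5d, the phosphatase SHIP1 of blood cells (0.53, adjusted p = 0.691). Akt1 was at 10.68, 10.9 and 11.08 in wild type VILI and 11, 10.67 and 10.81 in knockout VILI, with a difference of -0.06 (SE 0.16, adjusted p = 0.952), and Akt2 differed by -0.17 (adjusted p = 0.82). Trib3, a pseudokinase that binds Akt, differed by 0.58 (adjusted p = 0.807). Pik3ap1, the adaptor upstream of PI3K that rose, was not on the list. Of 13 measured ubiquitin enzymes known to act on Akt, 0 passed and the median was 0. The largest differences were those of Skp2 (0.83, adjusted p = 0.736), Traf6 (-0.33, adjusted p = 0.816) and Bfar (0.33, adjusted p = 0.788). These are transcript levels, and the arrays hold no measure of Akt protein or of its phosphorylation.

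The relatives and partners of Gadd45a were measured as well. Of 22 genes of the Gadd45 family and its stress kinase partners 1 passed, Gadd45a itself, and the median was 0.09. Gadd45b was at 10.17, 10.32 and 10.13 in wild type VILI and 10.57, 10.38 and 9.73 in knockout VILI (difference 0.02, adjusted p = 0.997), with a sign that several alternatives turned. Gadd45g was at 11.21, 11.26 and 11.01 against 11.03, 10.76 and 10.06 (difference -0.55, adjusted p = 0.732). Cdkn1a, which encodes p21, was at 12.48, 12.31 and 12.63 against 11.52, 11.69 and 11.34. These arrays did not overlap, but the fitted spread over all 12 arrays was wide and the difference of -0.96 did not pass (SE 0.52, adjusted p = 0.752). Among 26 p53 targets and apoptosis genes, 14 DNA repair and demethylation genes and 32 immediate early genes, 0 passed, and the medians were -0.03, 0.06 and 0.1.

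Several genes lay just outside the threshold. Dio2, the deiodinase that activates thyroid hormone, was at 7.31, 6.88 and 7.61 in wild type VILI and 4.57, 4.85 and 3.41 in knockout VILI, a difference of -2.99 (SE 0.49, adjusted p = 0.0605). Its other kept probe set, at 5.76, 5.45 and 4.98 against 2.37, 2.99 and 2.08, passed when all 23082 kept probe sets were tested (difference -2.92, adjusted p = 0.00101). Only the 3 wild type VILI arrays of this probe set lay above the array medians, so it was kept through the group where it was high. Its result therefore follows in part from the filter. Plin2, the lipid droplet coat protein, was at 11.05, 11.27 and 11.11 against 10.29, 10.66 and 10.19 (difference -0.76, SE 0.13, adjusted p = 0.0605). Plin2 passed under the stricter filter (0.0489), with array weights (0.0192) and without knockout VILI replicate 2 (0.0091). Alpl, tissue-nonspecific alkaline phosphatase, differed by -1.39 (adjusted p = 0.0662) and Tnfsf9, a costimulatory ligand of the tumour necrosis factor family, by -2 (adjusted p = 0.0784). Each of these 4 genes passed in some alternatives. Dio2 passed with array weights (0.0187), the mean of its 2 kept probe sets (0.00352) and without wild type SB replicate 2 (0.00654) or 3 (0.036). Alpl passed with array weights (0.0426) and without wild type SB replicate 1 (0.0493), and Tnfsf9 with array weights (0.0497) and without knockout VILI replicate 2 (0.029). In SB lungs the 4 genes differed by -1.12, -0.07, -0.18 and -0.49. The chemokines Ccl8 and Cxcl13, the latter a B cell attractant, differed by 3.53 (adjusted p = 0.186) and 4.12 (adjusted p = 0.271), and the highest values of both were in knockout VILI replicate 3, at 9.72 and 11.52.

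The genotype difference was then set beside that of the SB lungs, which shares no array with it. Both came from 1 fit with a common spread for each gene, so their calls are not independent. In SB 12 of 10996 genes (0.109%) passed. All 11 genes called after VILI had the same sign in SB, and 9 passed in both, 81.8% of the VILI calls and 75% of the SB calls. In SB the differences were 5.97 for Igha, 5.6 for Igkv6-14, 4.17 for Pik3ap1, 2.15 for Fbln2, 1.52 for Nnt, -1.07 for Smoc2, -1.89 for Hps1, -3.36 for Mid1 and -3.74 for Gadd45a. Igf1 and Eln passed after VILI and not in SB, where Igf1 differed by -1.21 (adjusted p = 0.0689) and Eln by -0.84 (adjusted p = 0.266). Tnc, Lrmda and Erdr1 passed in SB and not after VILI. For Tnc this turned with the probe set: its other kept one differed by -0.46 in SB (adjusted p = 0.514) and by -1.89 after VILI (adjusted p = 0.00739), both over all kept probe sets. Lrmda differed by -3.04 in SB (adjusted p = 0.000286) and by -1.15 after VILI (adjusted p = 0.259), and Erdr1, a pseudoautosomal gene, by -2.2 (adjusted p = 0.0256) and -1.57 (adjusted p = 0.179).

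No gene passed for a genotype difference that depended on VILI: limma called 0 of 10996, and the smallest adjusted p was 1. At an unadjusted p under 0.05 there were 288 genes (2.62%). So neither the calls of Eln and Igf1 nor those of Tnc, Lrmda and Erdr1 were shown to be restricted to one treatment. For Eln the difference of the differences was -0.87 (SE 0.29), and with its other kept probe set it was -2.33 (SE 0.41, adjusted p = 1 over all kept probe sets). Wild type lungs had 10.61 ± 0.13 in SB and 11.35 ± 0.12 after VILI, and knockout lungs 9.77 ± 0.24 and 9.64 ± 0.47 (SD, n = 3). For Cxcl1 it was 2.38 (SE 0.52), with wild type means of 4.28 and 5.84 and knockout means of 3.94 and 7.89 in SB and after VILI. For Lrmda it was 1.89 (SE 0.37). All 3 had an adjusted p of 1. Among single probe sets, the kept one of Dio2 that did not stand for the gene gave -2.85 (SE 0.36, adjusted p = 0.139 over all kept probe sets). Its means in SB and after VILI were 2.18 and 5.4 in wild type and 2.11 and 2.48 in knockout. All but the wild type VILI mean lay below the array medians, and this probe set was kept through the wild type VILI arrays alone.

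**Figure D5:**
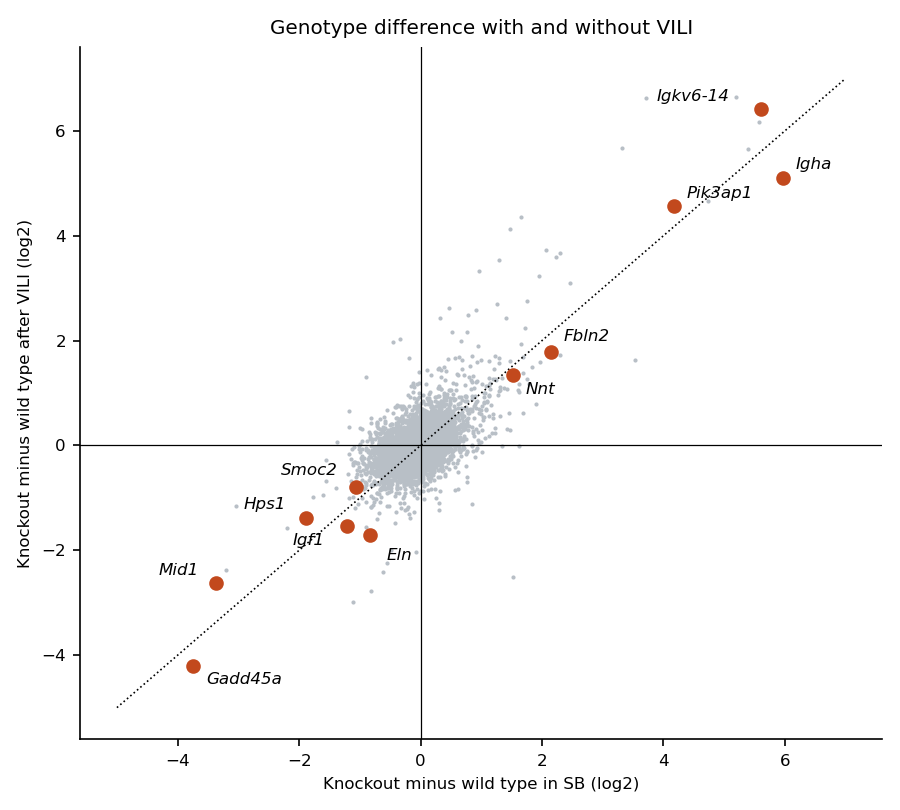
Difference of knockout minus wild type after VILI (vertical axis) against the same difference in SB (horizontal axis), both on the log2 scale, for 10996 genes in grey and the 11 genes past the threshold after VILI in orange; the dotted line marks equal differences. The 11 lie at the lower left and upper right, with Gadd45a at -3.74 in SB and -4.2 after VILI and Eln at -0.84 and -1.71.

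The position of the called genes was read from the RefSeq gene order, which was used for names and order only. Gadd45a, Igkv6-14 and Fbln2 share a chromosome: 3 of 586 tested genes there (0.512%) passed, Gadd45a included, against 0.100% of all genes. Of the 25 genes on each side of Gadd45a 4 were tested, and 0 passed. Mad2l1 differed by 0.46, Gng12 by -0.12 and Serbp1 by 0.13, and Igk, the entry of the kappa light chain locus, stands 14 genes from Gadd45a and differed by 6.17 (adjusted p = 0.0817). Igk passed with array weights (0.0119), without wild type SB replicate 1 (0.0406) and without knockout VILI replicate 1 (0.0285).

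Single probe sets showed differences that the gene level did not. With all 23082 kept probe sets tested, 23 passed (0.0996%), 10 higher and 13 lower. Of these, 11 represented the called genes, 4 were further probe sets of called genes, and 4 belonged to genes that had not passed. The largest of the 4 was on Tia1, an RNA-binding protein of stress granules that also lies on the chromosome of Gadd45a. This probe set was at 7.34, 7.5 and 7.7 in wild type VILI and 3.59, 2.8 and 2.78 in knockout VILI, a difference of -4.46 (adjusted p = 0.000397), and at -4.69 in SB. The 3 other kept probe sets of Tia1 differed by 0.28, 0.44 and 0.56 and did not pass, so only 1 of 4 read a lower level. The others were a probe set of Tnc (-1.89, adjusted p = 0.00739), 1 of Crispld2, a secreted protein of lung mesenchyme (-0.73, adjusted p = 0.0327), and the one of Dio2 above. A further 2 had no gene symbol (-2.11 and -1.02).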

How the data were processed

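The data were 12 arrays of mouse lung RNA. Each deposited value was a log2 expression level of a probe set, normalized by the authors. MAS5 and GCRMA appear in the submitters' processing notes, with no role or version. No detection call was used. Of 45101 probe sets 64 controls were left out, and 23082 of 45037 were kept because at least 3 of 12 arrays lay above the array's median. Gene symbols came from the platform annotation (34945 probe sets with 1 symbol, 932 with several, 9160 with none); 34741 matched RefSeq identifiers of GRCm38.p6. The kept probe set with the highest mean stood for a gene, which gave 10996 genes.

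All 12 arrays entered 1 linear model, with a mean for each of the 4 groups, in limma 3.58.1 in R 4.3.3, with version 1.17.8 of the data.table package, with a mean-variance trend (8 residual and 3.36 prior degrees of freedom). Tests were two-sided, adjusted by Benjamini-Hochberg over all genes, with a threshold of 0.05. SE is that of the fitted contrast. The procedure was checked on simulated data. Lists, 38 in all, are described by counts and medians, with no set test. Genes named by rule were up to 15 rises and 15 falls past the threshold without overlap, called list members and called Gadd45a neighbours. The rule also took the Gadd45 family and up to 10 genes called for a genotype difference that depended on VILI (0 were). It further took up to 4 genes with the largest differences in each of the cytokine, Akt and ubiquitin lists. All other genes named were chosen after their values were seen. Members, lists and rules were chosen with earlier results of these data known. Replicate numbers were not taken as pairs, since nothing in the labels ties same-numbered mice and not every same-numbered pair correlated above 0.1. Alternatives concerned the arrays fitted, normalization, centring, filter, variance model, array weights, probe set choice, replicate block and leaving out each array.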

Additional observations from a re-analysis of the deposited data

Results flagged for a closer look

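A pair of probe sets that name several genes, and so stayed out of the gene comparison, gave a signal of the same kind as Igha and Igkv6-14. The first, annotated to Igkv6-14, Igkv6-23 and Igkv8-19, was at 2.73, 2.57 and 2.04 in wild type VILI and 7.4, 7.24 and 10.35 in knockout VILI, a difference of 5.89 (limma adjusted p = 0.0305 over all kept probe sets). The other, annotated to Ighv1-72 and Ighm, was at 2.65, 2.65 and 2.66 against 6.01, 6.46 and 9.57, a difference of 4.69 (adjusted p = 0.0432). In both the highest value was that of knockout VILI replicate 3, and in both the wild type values lay below the array medians. This held for the wild type SB arrays too, so both probe sets were kept through knockout arrays alone. Their differences therefore follow in part from the filter, and the first is not separate from Igkv6-14.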

How the results depend on the processing

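Of the 11 genes, 8 stayed past the threshold in each of the 12 fits without 1 array (Igf1, Mid1 and Smoc2 did not), and 5 in every alternative run (Fbln2, Gadd45a, Igha, Igkv6-14 and Nnt). Gadd45a lay between -4.33 and -3.95. The VILI count was 44 with array weights, 23 over all probe sets (added after seeing the data), and 8 to 42 without 1 array. The other alternatives that keep all 12 arrays or the 6 VILI arrays gave 10 to 12, among them 10 with only the 6 VILI arrays (6 shared) and 11 under the stricter filter (7 shared). The SB count was 6 under the stricter filter, where fewer genes were tested, and 9 to 18 without 1 array. The count for dependence on VILI was 0 throughout. The count of called neighbours of Gadd45a, 0, was 1 (Igk) with array weights and 0 to 1 without 1 array. For the other moves the cause was not tested.

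Values close to 0 turned sign. Without 1 array, Gadd45b lay between -0.15 and 0.27, S100a8 between -0.11 and 0.27, S100a9 between -0.13 and 0.36, Fbln5 between -0.21 and 0.01 and Nr1d1 between -0.61 and 0.1. Gadd45b gave 0 with centred arrays, -0.01 with the probe set of highest variance. Tia1 gave -0.79 with the mean of its probe sets and -4.46 with that of highest variance. With the replicate number as a block, 10 genes passed after VILI (8 shared), 13 in SB and 0 for the dependence. Igf1 (0.0559), Mid1 (0.0711) and Smoc2 (0.0711) then missed the threshold and Plin2 (0.0157) passed. Same-numbered arrays correlated at 0.053, 0.144 and 0.095 (VILI) and at 0.231, 0.526 and 0.318 (SB) in their deviations; not every pair was above 0.1, so the numbers were not taken as pairs. Without detection calls, values under the array medians (4.44 to 4.58) stand for little or no signal.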

Other observations

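Heat shock genes split the knockout VILI lungs. Hspa1b, an inducible chaperone of the Hsp70 family, was at 8.84, 8.63 and 9.17 in wild type VILI, at 9.1 in knockout VILI replicate 1, and at 12.85 and 12.98 in replicates 2 and 3 (difference 2.76, limma adjusted p = 0.517). Hspa1a was at 7.07, 7.31 and 7.73, then 7.6, 10.61 and 11.22 (difference 2.44, adjusted p = 0.507). Its co-chaperone Dnajb1 differed by 0.85 (adjusted p = 0.548). Of 26 measured heat shock and unfolded protein response genes 0 passed, and 3 were higher at an unadjusted p under 0.05, against 2.78% of all genes. Without knockout VILI replicate 1, Hspa1b, Hspa1a and Dnajb1 passed, with differences of 4.03 (adjusted p = 0.0114), 3.55 (adjusted p = 0.00831) and 1.25 (adjusted p = 0.0186). That fit left out the array without the Hspa1b and Hspa1a rise, and 42 of 10996 genes passed in it.

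Interferon response genes had positive differences in 24 of 25 measured members, with a median of 0.34, and 0 passed. Cxcl10, a T cell attractant induced by interferon, was at 5.81, 5.87 and 5.67 in wild type VILI and 8.06, 6.4 and 10.19 in knockout VILI (difference 2.43, adjusted p = 0.456). Clca1, a secreted protein of mucous cells, was at 5.11, 3.22 and 3.21 against 6.62, 6.26 and 8.64 (difference 3.33, adjusted p = 0.501). Its wild type VILI replicates 2 and 3 lay below the array medians. Clca1 was the highest of 15 measured genes in a list of ion and water channels, of which 10 were lower, with a median of -0.14. All 4 measured platelet genes had negative differences without overlap, as did 8.13% of all genes, with Ppbp, the platelet basic protein, at -0.9 (adjusted p = 0.697) and a list median of -0.59. Type I epithelial markers were lower in 16 of 16, as were 5747 of all 10996 genes, with a median of -0.17, and 0 passed. Their median was -0.19 in SB lungs, so a difference of this size was present without VILI. Without knockout VILI replicate 3 it was -0.08 after VILI. Across the 18 cell type lists 0 genes passed.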
